A study of Mus musculus with 2 samples.

Results

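The genes described here are 9 components of the circadian clock, the cell-autonomous oscillator of roughly daily period: Per1, Per2, Per3, Cry1, Cry2, Arntl, Clock, Dbp and Bhlhe40. They were taken as every probe set that the platform annotation assigns to exactly 1 of these symbols, which gave 21 probe sets for the 9 genes. The array holds 45101 probe sets, and 18194 genes had at least 1 probe set assigned to a single gene. The study holds 1 group, neutrophils sorted by flow cytometry as live, Gr-1-high and CD48-negative cells from the bone marrow of C57BL/6 mice, an inbred laboratory strain, without treatment or culture. RNA was hybridised to 1 expression array in each of 2 independent experiments, called replicate 1 and replicate 2. Whether a sample came from 1 mouse or a pool, the age and sex of the mice, and the hour at which marrow was taken are all unstated in the sources used here. The arrays hold no time course.

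In mammalian cells ARNTL (also called BMAL1) and CLOCK form a heterodimer that binds E-box elements and activates the Per and Cry genes, and the PER and CRY proteins return to the nucleus and repress that heterodimer. The same heterodimer activates output genes such as Dbp, whose product binds D-box elements, and Bhlhe40 (also called Dec1), whose product competes at E-boxes. Neutrophils are short-lived cells whose release from marrow, ageing in blood and clearance are known to follow the time of day.

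Promoters from RefSeq (build GRCm38.p6) are shown for Per1, Cry1 and Per3 because they hold letters that match an E-box or a D-box. The windows run from 250 bases before to 50 bases after a transcript start and were searched on both strands for the E-box CACGTG, which reads the same on both strands, and for the D-box, TTATGTAA (TTACATAA on the other strand) or TTACGTAA, whose letters do not overlap those of the E-box. The Per1 window lies at chr11:69098699-69098998 on the plus strand, the Cry1 window at chr10:85185005-85185304 and the Per3 window at chr4:151044616-151044915, both on the minus strand. Capitals mark the E-box in Per1 and Cry1 and both D-boxes in Per3.
Per1: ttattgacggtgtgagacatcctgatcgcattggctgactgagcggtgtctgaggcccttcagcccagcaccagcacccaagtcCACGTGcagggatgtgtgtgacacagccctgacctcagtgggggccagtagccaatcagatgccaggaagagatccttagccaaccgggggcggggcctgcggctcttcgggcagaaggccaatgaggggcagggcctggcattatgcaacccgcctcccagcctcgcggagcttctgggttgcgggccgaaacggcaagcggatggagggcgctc
Cry1: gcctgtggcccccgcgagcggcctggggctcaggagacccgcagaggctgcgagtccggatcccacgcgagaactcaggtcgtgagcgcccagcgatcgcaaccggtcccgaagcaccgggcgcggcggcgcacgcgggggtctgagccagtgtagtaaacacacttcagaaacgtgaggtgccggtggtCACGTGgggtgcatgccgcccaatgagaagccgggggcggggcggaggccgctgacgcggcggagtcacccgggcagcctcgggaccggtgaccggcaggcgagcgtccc
Per3: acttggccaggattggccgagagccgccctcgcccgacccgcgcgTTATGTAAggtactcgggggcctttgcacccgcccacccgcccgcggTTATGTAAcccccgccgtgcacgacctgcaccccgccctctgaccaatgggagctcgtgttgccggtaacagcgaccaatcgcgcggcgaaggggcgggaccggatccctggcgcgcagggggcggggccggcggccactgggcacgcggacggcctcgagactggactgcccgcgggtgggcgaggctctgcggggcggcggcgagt
The E-box starts 166 bases before the transcript start in Per1 and 60 bases before it in Cry1, and the D-boxes of Per3 start 205 and 158 bases before it. Windows were found for 7 of the 9 genes, 11 windows in all, and not for Per2 and Bhlhe40. Of these 7 genes, 2 held an E-box (Per1 in 1 of its 2 windows, and Cry1) and 1 held a D-box, while the windows of Cry2, Arntl, Clock and Dbp held neither. Of all 27025 genes in the table, 8.09% held the E-box in at least 1 window and 1.23% the D-box, and of all 32851 windows 7.15% and 1.06% did. A match describes letters in this window only.

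Of the 9 clock genes, 4 were above background on both arrays: Per1, Per2, Cry1 and Bhlhe40. Per3 and Arntl passed on replicate 1 alone, and Cry2, Clock and Dbp passed on neither array. Both activator genes of the loop, Arntl and Clock, were thus not above background on both arrays, while 3 of the 5 Per and Cry genes were. Background was the 95th percentile of 87 probe sets for sensory receptor genes, which was 108 for replicate 1 and 131 for replicate 2, and a gene was called when at least 1 of its probe sets exceeded it on both. Over all genes 40.4% were above background on both arrays, against 44.4% of the clock genes, so the share of the clock genes lies near that of all genes. By probe set, 4 of the 21 (19.0%) were above background on both arrays, against 35.5% of all single-gene probe sets. Of the other probe sets, 4 exceeded the limit on 1 array and 13 on neither. Those above background on both were 3 of 12 for the Per and Cry genes, 0 of 6 for Arntl and Clock, and 1 of 3 for Dbp and Bhlhe40. A signal below the limit does not show that the transcript was missing.

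**Figure D1:**
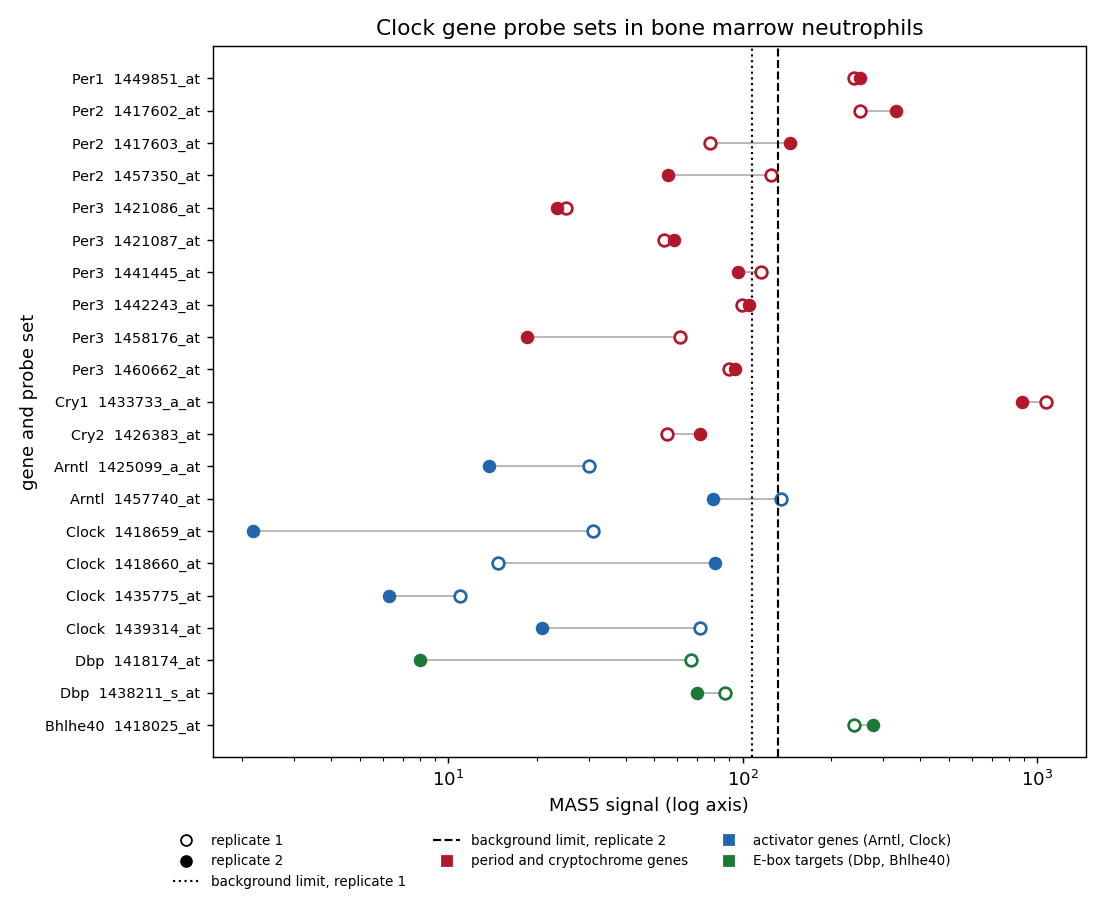
Signal of each of the 21 probe sets (log axis) on replicate 1 (open circles) and replicate 2 (filled circles), coloured by role, with the background limits of replicate 1 (dotted line) and replicate 2 (dashed line). Single probe sets of Per1, Per2, Cry1 and Bhlhe40 lie to the right of both limits, and every Clock and Dbp signal lies to the left of both.

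Among the repressors, Cry1 was above background on both arrays. Its 1 probe set, 1433733_a_at, read 1069 in replicate 1 and 886 in replicate 2, a log2 signal of 9.93 ± 0.19 (SD, n = 2). These signals were 9.92 and 6.75 times the limits of their arrays, and none of the 87 sensory receptor probe sets was as bright on either array. CRY1 is the stronger repressor of the ARNTL and CLOCK heterodimer in many cell types. Its paralogue Cry2, a repressor of the same heterodimer, had signals of 55.1 and 71.3 on its 1 probe set, 1426383_at. These lay below both limits, and 25 sensory receptor probe sets on replicate 1 and 19 on replicate 2 were brighter. The binding strength of a probe set is its own, so these values set each gene against background and do not rank Cry1 against Cry2.

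Per1, whose transcription also responds within the hour to cAMP and glucocorticoid signals, had signals of 239 and 251 on probe set 1449851_at. Its log2 signal was 7.93 ± 0.05 (SD, n = 2), at 2.21 and 1.91 times the limits, and no sensory receptor probe set was brighter on either array. Of the 4 called genes, Per1 had the smallest difference between the arrays as deposited.

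Per2, the period gene whose protein carries CRY proteins into the nucleus, was read by 3 probe sets that disagreed. Probe set 1417602_at had signals of 251 and 332, a log2 signal of 8.17 ± 0.29 (SD, n = 2), and was above background on both arrays. Probe set 1417603_at had 77.1 and 145 and passed on replicate 2 alone, at least 1.35-fold higher there. Probe set 1457350_at had 125 and 55.5 and passed on replicate 1 alone, where its signal did not exceed the limit of replicate 2, so no fold is given. The call of Per2 therefore rests on 1 of 3 probe sets, and the other two moved in opposite directions between the arrays.

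Per3, a period gene whose loss has mild effects on rhythm in mice, had 6 probe sets, of which none was above background on both arrays. Their signals ranged from 18.5 to 115. The highest, 1441445_at, had 115 on replicate 1, 1.07 times the limit, and 96.5 on replicate 2, below it. Probe set 1442243_at had 99.5 and 105, just under both limits. The remaining 4 probe sets were below the limit on both arrays.

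Neither activator was above background on both arrays. Arntl, whose loss alone abolishes behavioural rhythm in mice, had signals of 135 and 79.3 on probe set 1457740_at, above the limit on replicate 1 alone and at least 1.03-fold higher there. Its other probe set, 1425099_a_at, had 30.2 and 13.8, below both limits. Clock, which encodes the DNA-binding partner of ARNTL, had 4 probe sets with signals from 2.17 to 80.3, none above the limit on either array. Probe set 1418659_at had 31.1 and 2.17, 1418660_at had 14.7 and 80.3, 1435775_at had 11.0 and 6.30, and 1439314_at had 71.4 and 20.8. One of them was higher on replicate 2 and the other three on replicate 1, so the probe sets of Clock gave no common direction.

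The output genes differed from each other in their calls. Bhlhe40, the E-box repressor, had signals of 240 and 276 on probe set 1418025_at, a log2 signal of 8.01 ± 0.14 (SD, n = 2), at 2.22 and 2.10 times the limits. Both experiments were above background, and no sensory receptor probe set was brighter. Dbp, the D-box activator and a standard output marker of the clock, was not above background on either array. Its probe set 1438211_s_at, of a kind that can bind several transcripts, had 87.0 and 69.9, and 1418174_at had 66.9 and 8.01.

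By the brightest probe set of each gene, the experiments differed little in the 4 genes above background. Log2 signal on replicate 2 minus replicate 1 was 0.07 for Per1, 0.41 for Per2, 0.20 for Bhlhe40 and -0.27 for Cry1, and none of the 4 differed over 2-fold. Of all 7354 genes above background 5.40% did, 3.43% higher on replicate 2 and 1.97% higher on replicate 1. By any amount, replicate 2 was higher in 56.3% of these 7354 genes and in 3 of the 4 clock genes. The median of the 4 differences was 0.14, beside 0.07 over all genes above background, whose differences had an SD of 0.50. Among genes of like level (10 bins of equal size) the SD of the difference was 0.56 for the bins of Per1, Per2 and Bhlhe40 and 0.48 for that of Cry1, so each of the 4 differences was smaller than the spread of its own bin. The difference of Per2 exceeded that of 64.4% of genes in size and that of Per1 exceeded 12.2%. The other probe sets of Per2, 1417603_at and 1457350_at, each above background on 1 array only, differed by 0.91 and -1.17. The signs depend on how the arrays are scaled: Per1 was at -0.06 after scaling to equal medians, with all genes at a median of -0.06. All 4 genes were negative (-0.98 to -0.31) when scaled on the hybridisation controls, which put the median over all genes at -0.64. With 1 array per experiment these differences have no replicate check.

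**Figure D2:**
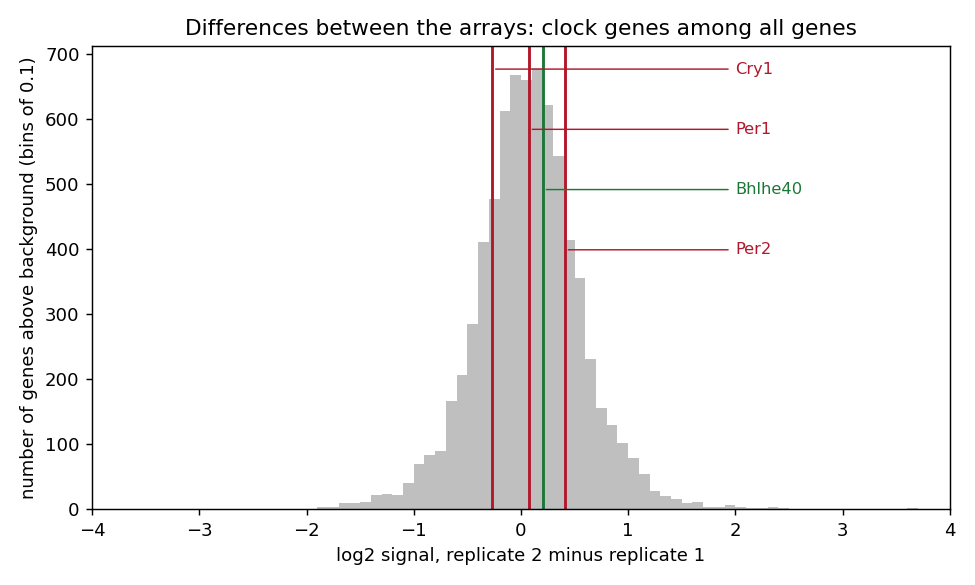
Histogram of log2 signal on replicate 2 minus replicate 1 over the 7354 genes above background (bins of 0.1), with vertical lines at the differences of the 4 clock genes above background. The lines run from -0.27 (Cry1) to 0.41 (Per2), within the central part of the histogram.

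Probe sets below background varied far more. The differences of the 17 clock probe sets that were not above background on both arrays ran from -3.84 to 2.45, both ends in Clock, while the 87 sensory receptor probe sets ran from -3.42 to 3.18 with an SD of 1.30. For the 13 probe sets above the limit on neither array, these differences are between signals below background. They describe the spread there and are not read as changes of a gene.

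**Figure D3:**
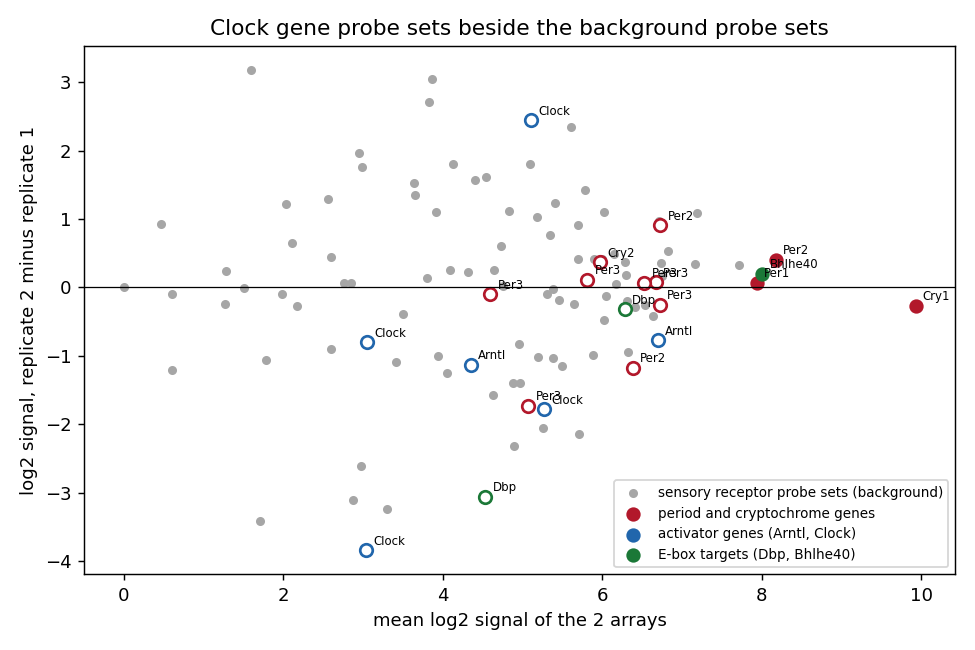
Difference between the arrays (log2, replicate 2 minus replicate 1) against the mean log2 signal for the clock probe sets (filled where above background on both arrays, open where not) and the 87 sensory receptor probe sets (grey). Open circles scatter from -3.84 to 2.45, beside grey points from -3.42 to 3.18, and filled circles lie between -0.27 and 0.41.

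Further transcription factors of the clock were mostly below background too. Of 11 measured genes, 2 (18.2%) were above background, against 40.4% of all genes. Those were Nfil3, a repressor at D-boxes, with signals of 1390 and 869 (log2 10.10 ± 0.48, SD, n = 2), and Tef, a D-box activator related to Dbp, with 309 and 257 (log2 8.14 ± 0.19, SD, n = 2). Nr1d1, which encodes the Arntl repressor REV-ERB alpha, had 16.3 and 11.5, and Nr1d2, its paralogue, 43.0 and 30.5. Npas2, a paralogue of Clock, had 40.1 and 8.15, and Arntl2, a paralogue of Arntl, had 51.0 and 62.0. All 4 of these genes lay below both limits. Of the other measured members, Rora passed on replicate 1 alone and Hlf on replicate 2 alone.

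The next list held kinases, ubiquitin ligases and enzymes that remove ubiquitin, which set the stability of PER and CRY proteins. Most of these also act outside the clock. Of 13 measured genes, 11 were above background (84.6%, against 40.4% of all genes). Csnk1d and Csnk1e, the casein kinases that phosphorylate PER proteins, had signals of 823 and 749 and of 962 and 709. The casein kinase 2 subunit genes Csnk2a1 and Csnk2a2 had 657 and 846, and 728 and 681. The 2 genes that did not pass were Fbxl21, a CRY ubiquitin ligase subunit, with 15.1 and 4.24, and Btrc, which targets phosphorylated PER, with 129 and 110, above the limit on replicate 1 alone. Fbxw11, the paralogue of Btrc, passed with 5339 and 5769 on a probe set of a kind that can bind several transcripts. Within the list 5 called genes were higher on replicate 2 and 6 lower, with a median difference of -0.04. Over all genes above background 56.3% were higher on replicate 2.

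Cofactors of the loop were above background in 12 of 15 measured genes (80.0%, against 40.4% of all genes). Nono, a PER-binding protein, had signals of 670 and 1291 on a probe set of a kind that can bind several transcripts. Of the 4 probe sets of Nono 3 passed. Cipc, a CLOCK-interacting repressor, had 108 and 132 and passed at 1.00 and 1.01 times the limits, so its call sits at the limit itself. That call rests on 1 of 3 probe sets, also of a kind that can bind several transcripts. Nampt, the NAD-producing enzyme whose gene is an E-box target, had 1402 and 684 and was 2.05-fold higher on replicate 1. It was the only called gene of the 3 clock lists past 2-fold by the deposited scaling, where 1.97% of all genes above background were over 2-fold higher on replicate 1. Nampt is also induced by inflammatory signals. Timeless (8.40 and 10.3), Tipin (4.53 and 183) and Ruvbl2 (53.6 and 44.3) did not pass. Tipin, whose protein works with TIMELESS at replication forks, passed on replicate 2 alone. Across the 3 lists 25 of 39 measured genes (64.1%) were above background, against 40.4% of all genes. Of these 25 genes 11 came from the kinase and ligase list, 12 from the cofactors and 2 from the further transcription factors.

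**Figure D4:**
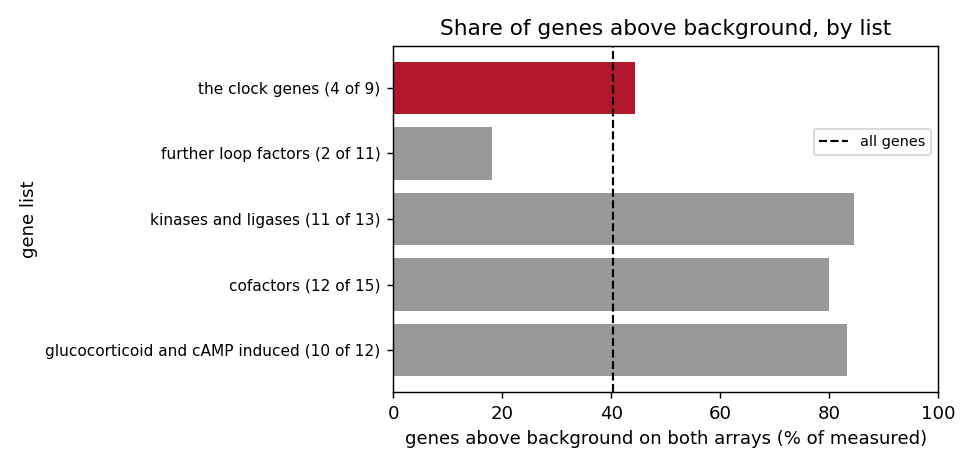
Percent of measured genes above background on both arrays for the clock genes (red bar) and 4 lists of related genes (grey bars), with the 40.4% of all genes as a dashed line. The further loop factors stand at 18.2%, the clock genes at 44.4%, and the other 3 lists between 80.0% and 84.6%.

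Per1 shares its induction by glucocorticoids or cAMP with genes that have other roles, and 10 of 12 genes of that list, Per1 included, were above background (83.3%, against 40.4% of all genes). Tsc22d3, the glucocorticoid-induced leucine zipper gene, had signals of 5618 and 5025, Fkbp5, a co-chaperone of the glucocorticoid receptor, 1138 and 1437, Klf9 1124 and 634, and the kinase gene Sgk1 4574 and 3460. Of their probe sets 3 of 4, 1 of 3, 4 of 7 and 1 of 1 passed, in that order. Crem (127 and 101) and Nr4a2 (45.4 and 100.4) did not pass on both arrays. Of the 10 called genes 8 were lower on replicate 2, with a median difference of -0.37. Per1 (0.07) and Fkbp5 (0.34) were higher by the deposited scaling, as were 56.3% of all genes above background. Immediate-early genes respond to cell handling as well as to signals in the animal. Of 10 such genes 9 were above background, against 40.4% of all genes. The median difference of the called ones was -0.48, beside 0.07 over all genes above background. Summed signals of the list were 53678 on replicate 1 and 37166 on replicate 2. Dusp1 and Nr4a1 stand in both lists, each above background and lower on replicate 2, so the lists are not separate. The part of immediate-early genes in the signals of Per1 was not tested.

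Neutrophil genes whose levels have been tied to the clock were above background in 4 of the 4 measured, against 40.4% of all genes. Cxcl2, a chemokine gene reported as a target of ARNTL in neutrophils, had signals of 5281 and 1781 and was 2.97-fold higher on replicate 1. Its receptor gene Cxcr2 had 7212 and 3224 and was 2.24-fold higher there. Cxcr2 also stands among the neutrophil markers below, so those lists are not separate. Cxcr4, which retains neutrophils in marrow, had 3512 and 2821, and Itgam, an integrin gene, 6822 and 6868. The differences of Cxcl2 and Cxcr2 likewise compare single arrays, and whether they relate to the clock was not tested.

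The label was checked against markers, and the counts that follow stand beside the 40.4% of all genes above background. By the deposited scaling 56.3% of all genes above background were higher on replicate 2, with a median difference of 0.07. All 11 measured neutrophil genes were above background, with summed signals of 244765 on replicate 1 and 349373 on replicate 2. Of these, 8 were higher on replicate 2 and 3 lower, namely Cxcr2 (7212 and 3224), Csf3r (7951 and 4670) and Padi4 (4088 and 4027). Of the proliferation genes 10 of 19 were above background, all 10 higher on replicate 2 (median difference 2.42), with summed signals of 2727 and 12712. Of the monocyte markers 3 of 6 were above background, with summed signals of 5711 and 2587, mostly from Csf1r (5020 and 1928). The other called ones were Ccr2 (156.6 and 219.7) and F13a1 (264 and 231), so the lower sum on replicate 2 came mainly from Csf1r, while Ly86 and Ms4a6c were below both limits. Summed signals of the B cell markers, none of 5 above background on both arrays, were 177 and 469. The corresponding counts were 1 of 5 for T and NK cells (626 and 614), 3 of 5 for erythroid cells (792 and 821), 1 of 3 for stem and progenitor cells (318 and 582) and 1 of 5 for eosinophils and basophils (451 and 459). In these bulk samples fewer cells of a type and less RNA per cell cannot be told apart, and the part of other cells in the clock gene signals was not tested.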

How the data were processed

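Neutrophil RNA from 2 samples was measured on 1 array each. The deposited values are linear signal intensities that the authors made with MAS5, per the submitters' processing notes, with version and settings unstated in the sources used here. The trimmed mean (2% off each end) was 250.0 on each array, so they had been scaled before deposit. Their number limits the precision.

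Gene names came from the platform annotation in GEO (34958 with 1 gene, 932 with several, 9211 unnamed here). Signals under 1 were set to 1 before log2, and the brightest probe set by mean log2 stands for a gene. Calls, differences and lists were computed with Python 3.11.15, numpy 2.4.6 and pandas 2.3.3. Calls and differences, but not the lists, were checked on simulated data. Background values there were drawn from the 87 sensory receptor probe sets that also set the limit, separately for each array. The share of simulated background genes called was therefore largely fixed in advance. Each simulated gene had 1 probe set, so calls from several probe sets were not checked. The expressed genes simulated there had starting levels above those of Per1, Per2 and Bhlhe40, so calls near the limit were not checked. With 1 group there is no test between groups, and nothing says that the samples came from separate mice. Every probe set of the 9 genes is reported. From other lists the text names the first 4 measured genes, those over 2-fold, and those whose call goes against over 75% of their list; Fbxw11, Rora, Hlf and the markers named were added after their values were seen. With 2 arrays no gene was named for a like pattern. The members and lists were chosen with earlier results of these data known.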

Additional observations from a re-analysis of the deposited data

How the results depend on the processing

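The alternatives were the 90th and 99th background percentiles, genes of other organs as background (68 probe sets of 35 genes), median, quantile and hybridisation control scaling, leaving out probe sets ending in _x_at or _s_at, the mean of probe sets, 32 added to the signal, no background filter and each array alone. Per1, Per2, Cry1 and Bhlhe40 were called under every setting that gives calls. The 90th percentile added Per3 (5 genes, with 45.4% of all genes above background). Replicate 2 alone gave 4 (44.2% of all genes). Replicate 1 alone gave 6, with Per3 and Arntl added (46.3% of all genes). With other organs as background the limit on replicate 2 was 250.3, just under the Per1 signal of 250.6 there. Genes of the 3 clock lists above background numbered 23 to 27, beside 25 of 39 measured by the main setting, most of them kinases, ligases and cofactors. Over the same settings the share of all genes above background ran from 29.1% to 46.3%. The median difference of the called clock genes was 0.14 and moved to -0.58 with hybridisation control scaling, where all genes were at -0.64; without a filter it was -0.26, over all 9 genes, and 1 gene, Clock, passed 2-fold, on signals below background. No paired analysis was possible because the study holds 1 group. Leaving out an array leaves no difference between arrays. Signal near background limits Per3, Arntl, Cry2, Clock and Dbp.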
